A study of Arabidopsis thaliana with 15 samples.

Results

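The genes described here are those whose transcripts were lower 48 h after FAMA was switched on in Arabidopsis thaliana seedlings, while neither 4 h of FAMA nor 48 h of FAMA-EAR moved them beyond set limits. FAMA is a basic helix-loop-helix transcription factor. FAMA-EAR is FAMA joined to the EAR repression domain. The members, chosen by signal differences, are 115 of 22746 probe sets, a probe set being a group of short probes read as 1 value on the Affymetrix ATH1 array. Each member had a mean log2(signal + 20) at least 1 lower in FAMA seedlings at 48 h than in controls of that time, with all 3 FAMA arrays below all 3 control arrays. Its mean also differed by under 0.38 between FAMA and controls at 4 h and by under 0.5 between FAMA-EAR and controls at 48 h, and its 48 h control signal averaged 200 or more. The gene PSAN and genes with UGT symbols were set aside, which took out PSAN alone and left 115 of 116. Because these values chose the members, the 3 differences are given as descriptions, and a count of calls on them is no test of the members.

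Of the 115 probe sets, 59 have 1 gene in the probe table, 1 has several genes and 55 have no gene name there. The sources used here give a gene symbol with a meaning to 5 of the 59. The other 54 carry a locus tag only, so they are called by that tag and no function is given to them. The 59 probe sets stand for 59 different genes, and 3 of the 115 probe sets carry the array's marking for probes that may match more than 1 transcript. Of the members with 1 gene, 58 were found in the reference gene table, and no 2 of these were next to each other there. The closest pair, AT3G15520 and AT3G15630, had 13 protein-coding genes between them. Positions of the other members were not compared.

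FAMA is known from Arabidopsis as the factor that acts at the last step of the stomatal lineage, where it ends the division of the guard mother cell and promotes the guard cell fate. An added EAR motif is widely used to turn a transcription factor into a repressor of its targets. Chlorophyll, which 1 of the named members helps to make, is built in the chloroplast by a chain of enzymes that inserts magnesium into protoporphyrin, methylates the product and closes a further ring.

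Whole seedlings of ecotype Columbia were grown for 5 days under continuous light and moved to plates with 10 µM estrogen or, for the controls, to fresh plates without it. The 5 groups of 3 arrays are FAMA 48 h and FAMA-EAR 48 h, both with estrogen and 7 days old, control 48 h without estrogen at the same age, FAMA 4 h with estrogen at 5 days, and control 4 h without estrogen at 5 days. The series describes an estrogen-inducible cassette for FAMA and does not name the promoter or the number of lines, and the genotype of the controls is not given in the sources used here. A difference from controls therefore holds the estrogen and the construct together, and there is no 4 h group for FAMA-EAR. In whole seedlings, fewer cells of a type and less RNA per cell cannot be told apart.

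The probe set for FAMA read 18024 ± 944 in FAMA seedlings at 48 h, 3060 ± 369 in FAMA-EAR seedlings and 243.5 ± 12.9 in the 48 h controls, and 12377 ± 601 in FAMA seedlings at 4 h against 245.9 ± 13.7 in the 4 h controls (SD, n = 3 each). The FAMA-EAR group thus carried less of this transcript than either FAMA group. All arrays had been scaled to a trimmed mean signal between 500.04 and 500.05. The median signal was 188.2 to 199 on 14 arrays and 239.5 on the third FAMA 4 h array, whose rank correlations with its own group reached down to 0.928. The 3′ control probe sets exceeded their 5′ partners, a measure of RNA quality, by a mean log2 ratio of 0.191 to 0.214 in FAMA seedlings at 48 h, 0.533 to 0.731 in FAMA-EAR seedlings and 0.297 to 0.496 in the 48 h controls. These ranges did not overlap, and their part in the late falls was not tested.

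The members differed by -2.67 to -1.0006 log2 units between FAMA seedlings and controls at 48 h, with a median of -1.16. Over the 11254 probe sets with a 48 h control mean of 200 or more, the median difference was 0.002. Array by array, the median member lay at -1.196, -1.18 and -1.15 in FAMA seedlings relative to the mean of the 48 h controls, at -0.06, -0.01 and -0.05 in FAMA-EAR seedlings, and at -0.02, -0.02 and 0.01 in the controls themselves. At 4 h it lay at -0.19, -0.21 and -0.27 in FAMA seedlings against -0.13, -0.24 and -0.21 in controls. In all 115 members the 3 FAMA 48 h arrays were below the 3 FAMA-EAR arrays, which was true of 30.2% of the 11254 probe sets. The rule does not ask for this order, but its limits on FAMA-EAR make it likely.

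**Figure D1:**
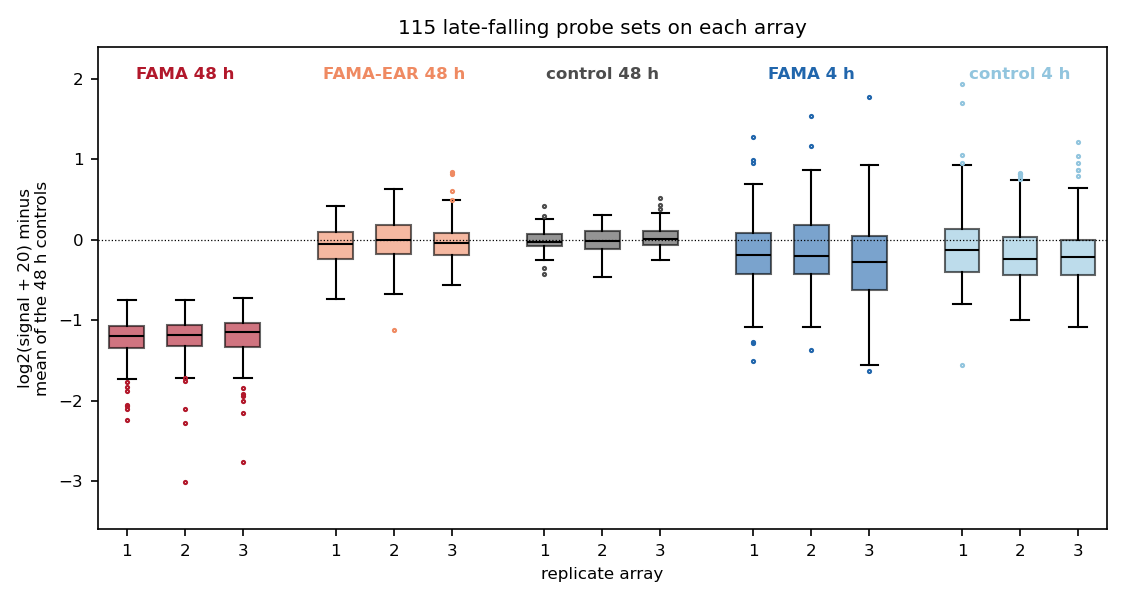
Distribution of the 115 members on each of the 15 arrays, as log2(signal + 20) minus the mean of the 48 h controls (y axis), with arrays grouped along the x axis. Boxes span the quartiles, lines in the boxes are medians, whiskers reach 1.5 times the box length and points are members beyond them. The FAMA 48 h boxes have medians of -1.196, -1.18 and -1.15, while the medians of the other 12 arrays lie between -0.27 and 0.01.

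In 109 of the 115 members the 3 FAMA 48 h arrays were below all 12 other arrays of the series, a pattern found in 11.0% of the 11254 probe sets with that control level. Part of this order is set by the rule, which asks for it against the 48 h controls and makes it likely against FAMA-EAR. The count is therefore a description. The 6 exceptions were scpl35, AT1G22890, AT3G12685, AT3G15630 and a pair of probe sets with no gene name. Each of the 6 read higher in controls at 48 h than at 4 h, by 0.42 to 1.1997 log2 units. In scpl35, FAMA seedlings at 48 h differed by 0.16 from FAMA seedlings at 4 h and by -0.12 from the 4 h controls. In the other 5 they averaged lower than at 4 h, by -0.44 to -0.21 log2 units from FAMA seedlings at 4 h and by -0.67 to -0.47 from the 4 h controls.

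Members made up a larger share of bright probe sets than of dim ones. The control level is itself a value the rule uses, so the shares are a description. Of the probe sets with a control level of 200 to 500, 0.554% were members (27 of 4873). The share was 0.774% between 500 and 1000 (23 of 2973), 1.55% between 1000 and 2000 (27 of 1741), 1.82% between 2000 and 5000 (20 of 1101) and 3.18% above 5000 (18 of 566). In the same order the median difference between FAMA seedlings and controls over all probe sets of the class was 0.05, 0.03, -0.05, -0.10 and -0.28, so the median was lowest in the brightest class. The median control signal was 1292 in the members against 581 in the 11254 probe sets. Levels of different probe sets depend on their probes as well as on the transcript.

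Of the 5 members with a named function, 2 belong to the chloroplast. CHLM is the magnesium-protoporphyrin IX methyltransferase, the enzyme of chlorophyll synthesis that follows magnesium insertion. Its signals at 48 h were 4427, 4192 and 4253 in FAMA seedlings, 7151, 8082 and 7317 in FAMA-EAR seedlings and 9150.2, 10126 and 9407 in controls. All 3 FAMA arrays were below both other groups, and FAMA-EAR was also below every control, with a difference of -0.35 beside -1.15 for FAMA.

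NdhL is a subunit of the chloroplast NADH dehydrogenase-like complex, which moves electrons around photosystem I. It read 1153, 1159 and 1136 in FAMA seedlings, 2676, 2161 and 2217 in FAMA-EAR seedlings and 2407, 2461 and 2465 in controls. The FAMA arrays lay close together and the other groups overlapped. The difference from controls was -1.07 log2 units for FAMA and -0.06 for FAMA-EAR.

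MSRB6 is a methionine sulfoxide reductase, an enzyme that repairs oxidised methionine in proteins. Its signals were 613, 517 and 550.4 in FAMA seedlings, 976, 1289 and 1522 in FAMA-EAR seedlings and 1357, 1279 and 1068 in controls. FAMA-EAR and control arrays overlapped, and the difference was -1.11 for FAMA. Its FAMA 4 h arrays were spread most among the named 5, with 2474, 1571 and 1196 against 1309, 1463 and 1541 in the 4 h controls.

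JAL33 is a jacalin-related lectin, of a family of sugar-binding proteins. It gave 3354, 3071 and 3201 in FAMA seedlings, 5326, 4461 and 6674 in FAMA-EAR seedlings and 7021, 6238 and 6699.5 in controls. The FAMA-EAR arrays reached below the lowest control, and the differences were -1.05 for FAMA and -0.29 for FAMA-EAR. With quantile normalization in place of the deposited scaling, JAL33 no longer met the rule.

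The scpl35 gene encodes a serine carboxypeptidase-like protein, of a family of secreted or vacuolar hydrolases and acyltransferases. It read 604, 623 and 475 in FAMA seedlings, 1611, 1043 and 1374 in FAMA-EAR seedlings and 1367, 1643 and 1329 in controls. At 4 h it had 493, 544 and 474 in FAMA seedlings and 475, 732 and 670.0 in controls. It is the member with the highest gain between 4 h and 48 h in controls, 1.1997 log2 units, whereas FAMA seedlings at 48 h differed from FAMA seedlings at 4 h by 0.16. Its FAMA 48 h arrays overlapped those of both 4 h groups. With array medians set equal, scpl35 no longer met the rule.

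**Figure D2:**
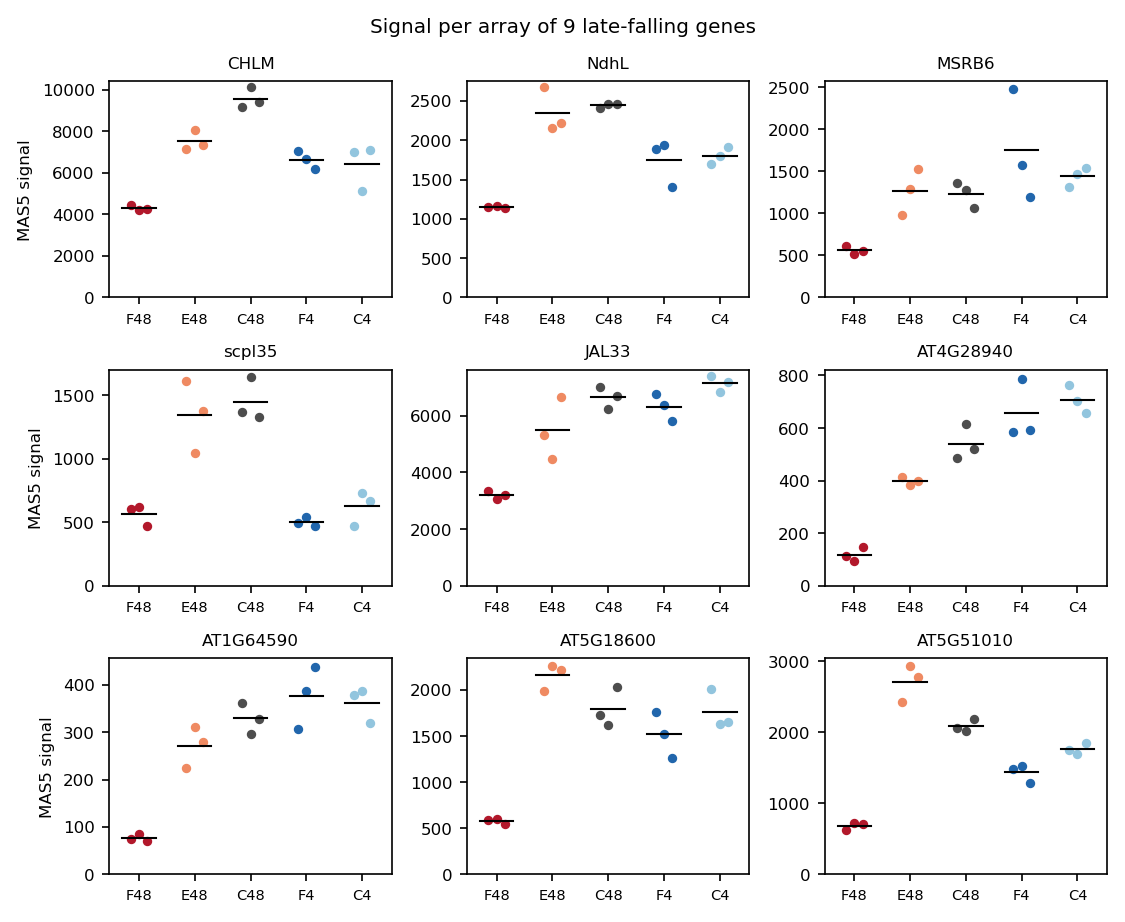
MAS5 signal (y axis, linear from 0) of the 5 members with a named function and the 4 locus-tag genes with the largest differences, with 1 point for each array and a line at the group mean. F48, E48 and C48 stand for FAMA, FAMA-EAR and control at 48 h, and F4 and C4 for FAMA and control at 4 h. In AT4G28940 the 3 F48 points lie between 94.7 and 149.1, below every other array.

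The largest differences belonged to 2 probe sets with no gene name. The signals of 257823_at were 320.0, 179 and 216 in FAMA seedlings, 1225, 1631 and 1505 in FAMA-EAR seedlings and 1899.7, 1229 and 1705 in controls, a difference of -2.67 log2 units. Those of 266353_at were 811, 809 and 779 in FAMA seedlings, 3276, 4606 and 4305 in FAMA-EAR seedlings and 3803, 3225 and 3642 in controls, a difference of -2.12. In both, FAMA-EAR arrays overlapped or lay around the controls.

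Among members with 1 gene, AT4G28940 was lowest in FAMA seedlings, -2.03 log2 units from controls. Its 48 h signals were 113, 94.7 and 149 in FAMA seedlings, 415, 382 and 398 in FAMA-EAR seedlings and 486, 616 and 519.5 in controls. The FAMA-EAR arrays were all below the controls, by -0.42, and all above FAMA. At 4 h it read 586, 788 and 592 in FAMA seedlings and 762, 704 and 658 in controls, so the 4 h groups overlapped and stood above all 48 h arrays except 1 control.

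AT1G64590 came next at -1.85, with 74.3, 86.1 and 70.4 in FAMA seedlings, 225, 310.3 and 279.7 in FAMA-EAR seedlings and 362, 297 and 328 in controls. FAMA-EAR and controls overlapped. AT5G18600 followed at -1.59, and its signals were 586, 600.4 and 548 in FAMA seedlings, 1994, 2261 and 2217 in FAMA-EAR seedlings and 1728, 1624 and 2028 in controls. The highest control lay within the FAMA-EAR range there. AT5G51010 read 625, 729 and 706 in FAMA seedlings, 2427, 2930.2 and 2779.7 in FAMA-EAR seedlings and 2054, 2021 and 2189 in controls. All FAMA-EAR arrays were above all controls, so that this gene was low with FAMA (-1.58) and high with FAMA-EAR (0.37).

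The next 4 genes had differences close to -1.44 and modest signals. AT2G25200 read 101, 98.9 and 95.4 in FAMA seedlings, 229.9, 260.5 and 290.4 in FAMA-EAR seedlings and 317, 213 and 398 in controls. AT5G03120 read 277, 214 and 182 in FAMA seedlings, 679.5, 804 and 724 in FAMA-EAR seedlings and 709, 586 and 605 in controls. In both, only the FAMA arrays stood apart from the overlapping pair of other groups. AT1G73120 showed 202, 187 and 182 in FAMA seedlings, 646, 240.1 and 364 in FAMA-EAR seedlings and 559, 513 and 572 in controls. Its second FAMA-EAR array was close to the FAMA arrays and its first was above the controls, a coefficient of variation of 49.9% in that group. AT1G78995 gave 148, 94 and 123 in FAMA seedlings, 432, 507 and 366 in FAMA-EAR seedlings and 273, 444 and 365 in controls. Its lowest control was still above all FAMA arrays.

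Another 6 genes lay between -1.41 and -1.35. AT2G23540 had 207, 239.5 and 224 in FAMA seedlings, 636, 668 and 773 in FAMA-EAR seedlings and 609, 572 and 709.9 in controls. AT5G12050 had 437, 456 and 519 in FAMA seedlings, 957, 1323 and 1073 in FAMA-EAR seedlings and 933, 1515 and 1427 in controls. Both averaged highest at 4 h, where AT5G12050 read 1573, 1995 and 2005 with FAMA against 2334, 2239 and 2334 in controls. For AT2G34620 the signals were 753, 800.5 and 874 in FAMA seedlings, 1906, 2027 and 1955 in FAMA-EAR seedlings and 2227, 1863 and 2364 in controls. For AT3G44970 they were 212, 214 and 228 in FAMA seedlings, 620.4, 381 and 498 in FAMA-EAR seedlings and 660.5, 620.1 and 514 in controls. The FAMA-EAR arrays of AT3G44970 spread widely and overlapped the controls. AT4G38080 gave 595, 536 and 501 in FAMA seedlings, 1132, 1416 and 1396 in FAMA-EAR seedlings and 1399, 1314 and 1575 in controls. AT5G47610 gave 239, 306 and 348 in FAMA seedlings, 582, 661 and 643 in FAMA-EAR seedlings and 854, 843 and 668 in controls. In AT5G47610 every FAMA-EAR array was below every control, by -0.31 on average.

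Between -1.35 and -1.23 lay 8 more locus-tag genes. AT5G57345 read 699, 781 and 738 in FAMA seedlings, 1914, 2057 and 1884 in FAMA-EAR seedlings and 2044, 1639.9 and 2087 in controls. AT5G37990 read 268, 262 and 267 in FAMA seedlings, 423, 732 and 598 in FAMA-EAR seedlings and 574, 793 and 722 in controls. Its 3 FAMA arrays were close together. AT3G47070 was a bright one, with 2408, 2681 and 2658 in FAMA seedlings, 6326, 5767 and 5728 in FAMA-EAR seedlings and 5642, 7489 and 6263 in controls. AT1G74730 was another, with 2807, 2618 and 3076 in FAMA seedlings, 7448, 7193 and 6626 in FAMA-EAR seedlings and 6608, 7379 and 6530.2 in controls. Neither overlapped between FAMA and the 2 other groups, and in both FAMA-EAR overlapped the controls. AT4G23820 had 779, 781 and 704 in FAMA seedlings, 1496, 1886 and 1776 in FAMA-EAR seedlings and 1738, 2138 and 1638 in controls. AT1G14120 had 188, 221 and 208 in FAMA seedlings, 439.7, 436 and 472 in FAMA-EAR seedlings and 479, 524 and 540.3 in controls. FAMA-EAR was below controls on every array in AT1G14120, and overlapped them in AT4G23820. AT5G43180 read 200.2, 143 and 130.5 in FAMA seedlings, 379, 524 and 415 in FAMA-EAR seedlings and 438, 362 and 389 in controls, and AT5G57785 read 831, 671 and 784 in FAMA seedlings, 1872, 1779 and 1750.5 in FAMA-EAR seedlings and 2018, 1732 and 1677 in controls. FAMA-EAR and control arrays overlapped in these last 2.

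The remaining 7 of the 30 locus-tag or named genes with the largest differences lay between -1.21 and -1.17. AT3G08920 read 708, 719 and 680.1 in FAMA seedlings, 1640.0, 1814 and 1586 in FAMA-EAR seedlings and 1564, 1825 and 1589.7 in controls. AT1G49010 read 215, 231 and 225 in FAMA seedlings, 511, 585 and 491 in FAMA-EAR seedlings and 521, 605 and 508 in controls. Both had FAMA-EAR arrays overlapping the controls. AT3G09580 had 381, 372 and 394 in FAMA seedlings, 1037, 1049 and 1047 in FAMA-EAR seedlings and 889, 991 and 849 in controls. All of its FAMA-EAR arrays were above all controls. AT1G78460 gave 473, 441 and 460.4 in FAMA seedlings, 1102, 1229.9 and 1016 in FAMA-EAR seedlings and 1008, 1169 and 1074 in controls. AT1G22890 gave 169, 154 and 155 in FAMA seedlings, 353, 436 and 433 in FAMA-EAR seedlings and 387, 367 and 422 in controls. Again FAMA-EAR and controls overlapped. AT5G45650 had 228, 235 and 275 in FAMA seedlings, 538, 535 and 503 in FAMA-EAR seedlings and 569, 627 and 547 in controls, with FAMA-EAR below every control. AT5G24490 had 2535, 2724 and 2950.4 in FAMA seedlings, 8114, 7218 and 7166 in FAMA-EAR seedlings and 5744, 7007 and 5870.5 in controls, with FAMA-EAR above every control.

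The other 29 members with 1 gene had differences from -1.17 in AT4G27300 to -1.0006 in AT4G37240. AT2G26500 was the brightest, at 7888 ± 60.5 in FAMA seedlings, 17346 ± 949.7 in FAMA-EAR seedlings and 15947 ± 717 in controls (SD, n = 3 each). AT1G58150 was the dimmest in controls, at 84.6 ± 10.5, 168 ± 23.6 and 203 ± 17.7 in the same order of groups. Apart from CHLM and JAL33, control means were also high in AT3G13120, AT5G08050, AT1G29670, AT3G50685 and AT5G47190, at 9009 ± 226, 5404 ± 141, 4045 ± 389, 5993 ± 1081 and 5629 ± 531. Their FAMA means were 4433 ± 442, 2412 ± 166, 1885 ± 70.3, 2789 ± 149 and 2778 ± 139 (SD, n = 3 each).

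FAMA-EAR arrays overlapped the 48 h control arrays in 78 of the 115 members, lay below all controls in 19 and above all controls in 18. At 4 h, FAMA arrays overlapped controls in 96, lay below all of them in 12 and above in 7. A minority of members did separate in these comparisons, within the limits the rule sets. Such orders were not counted over all probe sets, so nothing particular to the members can be read from them. By limma, 3 members passed an adjusted p of 0.05 for FAMA-EAR against controls, all of them higher, against 1.39% of all probe sets in that direction, and 2.4% of those with the control level. These were AT5G51010, AT1G21500 and a probe set with no gene name. Lower were 0 members, against 1.81% and 3.23%. An unadjusted p under 0.05 in either direction was found in 24 of the 115 members. It was found in 3416 of all 22746 probe sets and in 2494 of the 11254 with the control level, so nothing particular to the members is read from it. For FAMA at 4 h, 1 unnamed member was higher, against 1.15% and 1.89%, and 1 was lower, against 1.77% and 3.18%. FAMA at 48 h was below FAMA-EAR by the same test in 114 members, all but AT3G15630, against 11.6% and 20.9%. The rule limits the FAMA-EAR and 4 h differences and asks for the late fall, so these counts were largely set in advance. They are a description and test nothing about the members.

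The members closest to the limits differ little from probe sets just outside. Inside the fall limit lay AT4G37240 at -1.0006 and a pair of unnamed probe sets at -1.0034 and -1.0042. Outside lay SWEET17 at -0.9991, MAP1C at -0.995 and an unnamed probe set at -0.9949. SWEET17 encodes a vacuolar sugar transporter and MAP1C a methionine aminopeptidase. At the 4 h limit AT3G15630 was inside at -0.379 and an unnamed probe set outside at -0.3808, and at the FAMA-EAR limit AT1G73120 was inside at -0.4851 and an unnamed one outside at 0.553. At the level limit the nearest unnamed probe sets averaged 200.4 inside and 195.8 outside.

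The change that members undergo between 4 h and 48 h without FAMA was not part of the rule, although the 48 h controls were. In controls, 28 members passed an adjusted p of 0.05 as higher at 48 h than at 4 h (24.3%) and 14 as lower (12.2%), by limma over all probe sets. The same calls were made for 3.37% and 3.81% of all 22746 probe sets, and for 6.45% and 6.06% of the 11254 probe sets with the control level that the rule asks for. The median difference was 0.21 over the members, with 86 positive and 29 negative, and 0.02 over the 11254. Since the rule favours probe sets high in the 48 h controls, these shares are a description. The number of members called higher was 17 when the variance prior had no trend.

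A second comparison of age uses arrays that did not set the fall, FAMA-EAR at 48 h against FAMA at 4 h, which both had estrogen but carried different constructs. Here 42 members were higher (36.5%) and 15 lower (13.04%), against 7.66% and 7.47% of all probe sets, and 14.1% and 10.4% of those with the control level. The limits on FAMA-EAR and on 4 h keep both groups near their controls, so the 2 comparisons are tied through the rule. Of the 28 members higher with age in controls, 25 were higher here and 0 lower. Of the 14 lower with age in controls, 11 were lower here and 0 higher. With the 2 comparisons tied in this way, opposite calls were unlikely from the start. The overlap was not counted over all probe sets.

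The 14 members with 1 gene that were higher with age in controls were scpl35, CHLM, NdhL, AT5G45650, AT3G08920, AT1G49010, AT4G33660, AT3G47070, AT3G50685, AT5G47190, AT3G09580, AT3G13120, AT1G74730 and AT2G26500. In CHLM the controls read 9150.2, 10126 and 9407 at 48 h and 7011, 5131 and 7122 at 4 h. In NdhL they read 2407, 2461 and 2465 at 48 h and 1703, 1796 and 1915 at 4 h. No 48 h control overlapped a 4 h control in either gene. AT3G47070 read 5642, 7489 and 6263 in controls at 48 h and 4480.2, 4161 and 4135 at 4 h, with 4260.4, 4232 and 3678 in FAMA seedlings at 4 h. In AT1G74730, NdhL, AT3G13120 and AT2G26500 the control difference was 0.39, 0.43, 0.42 and 0.32 log2 units. With array medians set equal it was 0.40, 0.44, 0.43 and 0.33 and no longer passed (limma adjusted p = 0.165, 0.0932, 0.0729 and 0.274). AT1G74730 also lost the call without the first or the second 48 h control or the third 4 h control (0.28 to 0.42, limma adjusted p = 0.0557 to 0.191). AT2G26500 lost it without the first or the third array of either control group (0.23 to 0.32, limma adjusted p = 0.0897 to 0.237), and its difference was 0.17 after quantile normalization (limma adjusted p = 0.29). NdhL lost it without the first 4 h control (0.39, limma adjusted p = 0.059).

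In the second comparison AT5G51010 was higher in FAMA-EAR seedlings at 48 h than in FAMA seedlings at 4 h by 0.91 ± 0.09 log2 units (SE, limma adjusted p = 5.72e-07), with no overlap between 3 and 3 arrays. The scpl35 difference was 1.36 ± 0.16 (SE, limma adjusted p = 3.26e-06). With age in controls scpl35 passed as well, whereas AT5G51010 did not, at 0.24 ± 0.09 (SE, limma adjusted p = 0.138). In AT5G51010, FAMA-EAR lay 0.37 above the 48 h controls and FAMA at 4 h differed by -0.30 from the 4 h controls, and both differences enter the value. AT3G09580, called in controls too, was higher by 0.77 ± 0.10 (SE, limma adjusted p = 1.17e-05), and AT3G19430 by 1.04 ± 0.17 (SE, limma adjusted p = 0.000148). For AT3G19430 the difference with age in controls was 0.40 ± 0.17 and did not pass (SE, limma adjusted p = 0.182), FAMA-EAR lay 0.34 above its controls and FAMA at 4 h differed by -0.30 from its own. CHLM did not pass, at 0.18 ± 0.10 (SE, limma adjusted p = 0.267), and its FAMA-EAR level was below that of the controls. NdhL passed at 0.43 ± 0.10 (SE, limma adjusted p = 0.007), but not without the first FAMA-EAR array (limma adjusted p = 0.0573).

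The 4 members with 1 gene that were lower with age in controls were AT5G12050, AT2G23540, AT4G38080 and AT1G29670. AT5G12050 read 933, 1515 and 1427 in controls at 48 h and 2334, 2239 and 2334 at 4 h, and AT1G29670 read 3681, 4455 and 3998 at 48 h and 5794, 6473 and 5566 at 4 h. In these genes the FAMA 48 h arrays were the lowest of a series that already ran downwards in controls. AT1G29670 was lower in FAMA-EAR seedlings at 48 h than in FAMA seedlings at 4 h, with a difference of -0.63 ± 0.08 log2 units (SE, limma adjusted p = 1.79e-05), and so was AT5G12050, with -0.73 ± 0.15 (SE, limma adjusted p = 0.0015). AT1G62510 was lower in that comparison, with -0.96 ± 0.14 (SE, limma adjusted p = 9.23e-05), while its difference of -0.34 in controls did not pass.

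**Figure D3:**
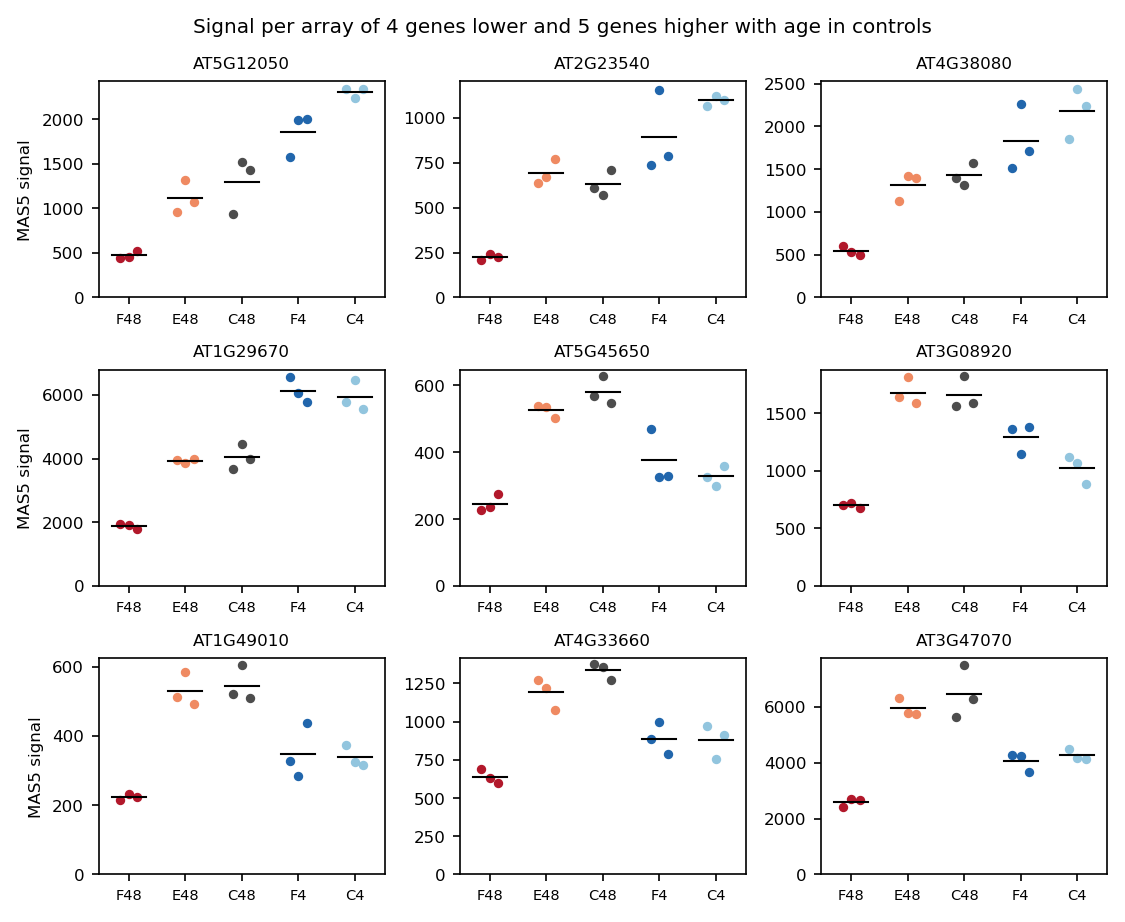
MAS5 signal (y axis, linear from 0) of the 4 members with 1 gene that were lower with age in controls (first 4 panels) and of the 5 called higher with the largest differences after scpl35, with 1 point for each array and a line at the group mean. F48, E48 and C48 stand for FAMA, FAMA-EAR and control at 48 h, and F4 and C4 for FAMA and control at 4 h. AT5G12050 runs between 933.3 and 1515 in C48 and between 2239 and 2334 in C4, with F48 between 437 and 519.

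FAMA seedlings at 48 h were lower than FAMA seedlings at 4 h in 107 of the 115 members and higher in 0, against 9.84% of all probe sets called lower by limma at an adjusted p of 0.05 and 15.3% of those with the control level, and 9.03% and 15.0% called higher. The median difference was -0.97. This comparison shares the FAMA 48 h arrays with the rule and is a description. Of the 28 members higher with age in controls, 26 were lower between these FAMA groups and 2 had no call. All 14 lower with age in controls were lower here too, and of the 73 with no age call 67 were lower. For 26 members the 2 time courses were called in opposite directions, while for 14 they were called in the same direction. Because the rule places the FAMA difference below the control difference in every member, this split mostly repeats the age calls. It was not counted over all probe sets.

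**Figure D4:**
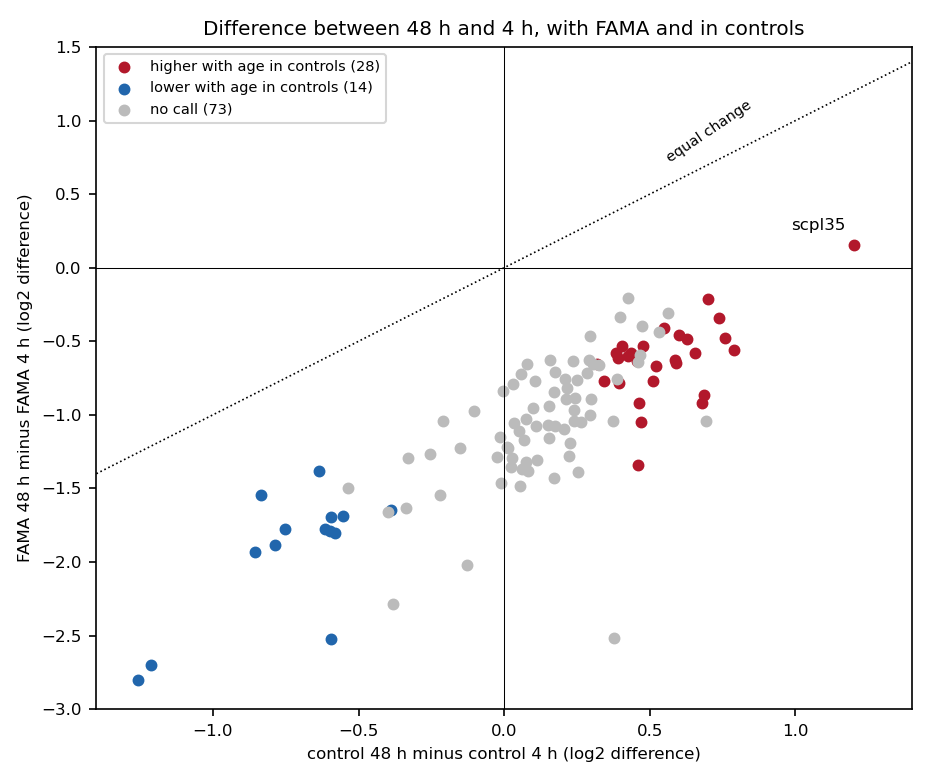
Difference between 48 h and 4 h in FAMA seedlings (y axis, log2) against that in controls (x axis, log2) for the 115 members, coloured by the limma call in controls. Points on the dotted line would have equal differences. The rule places every member below the line, since it asks for a late fall and no early one. The member with the highest values on both axes is scpl35, at 1.1997 and 0.16.

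Chlorophyll synthesis is the pathway list that holds a member. Of its 32 listed symbols 8 could be read, and 7 of the 8 were lower in FAMA seedlings than in 48 h controls by limma (adjusted p under 0.05), with a median of -0.73, against 11.0% of all probe sets and 20.4% of those with the control level. CHLM, the only one of the 8 within the rule, had the largest difference. Its call among the 7 was set by the rule. CHLI2, a subunit of the magnesium chelatase that acts just before CHLM, averaged 684 ± 13.2 in FAMA seedlings, 1456 ± 41.9 in FAMA-EAR seedlings and 1351 ± 126 in controls (SD, n = 3 each), a difference for FAMA of -0.96 ± 0.09 (SE, limma adjusted p = 6.37e-08). It missed the fall limit of the rule. PORB, a protochlorophyllide oxidoreductase of the light-dependent step, differed by -0.71 ± 0.11 (SE, limma adjusted p = 3.81e-05).

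The uroporphyrinogen decarboxylase genes HEME1 and HEME2 differed by -0.76 ± 0.11 and -0.75 ± 0.08 (SE, limma adjusted p = 2.75e-05 and 2.8e-07). HEME2 was also higher in FAMA-EAR seedlings than in controls, by 0.46 ± 0.08 (SE, limma adjusted p = 0.00117). PORB was higher in FAMA seedlings than in controls at 4 h, by 0.41 ± 0.11 (SE, limma adjusted p = 0.0441), and higher with age in controls, by 0.40 ± 0.11 (SE, limma adjusted p = 0.0242). Earlier in the pathway, HEMB1, which makes porphobilinogen, differed by -0.55 ± 0.09 (SE, limma adjusted p = 5.08e-05) and GSA1, which makes aminolevulinate, by -0.43 ± 0.09 (SE, limma adjusted p = 0.000797). HEMA2, a glutamyl-tRNA reductase gene, did not pass at -0.36 ± 0.22 (SE, limma adjusted p = 0.317). With age in controls, 3 of the 8 were higher and 0 lower.

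Of the photosystem and light-harvesting list 8 of 65 symbols could be read, and 7 were lower with FAMA at 48 h, with a median of -0.72. They include the antenna genes LHCB4.1 at -0.72 and LHCB4.2 at -0.79, PSBW and PSBY of photosystem II at -0.59 and -0.72, and ATPC1 of the chloroplast ATP synthase at -0.60 log2 units. PSAE-1 of photosystem I did not pass, at -0.17 ± 0.12 (SE, limma adjusted p = 0.407). All 3 readable Calvin cycle genes were lower, namely RCA at -0.51, PRK at -0.66 and SBPASE at -0.67 log2 units. In this comparison 11.0% of all probe sets were called lower, and 20.4% of those with the control level. Most genes of these lists averaged above 5000 in the 48 h controls, a class whose median difference over all its probe sets was -0.28. None of these list genes met the rule except PSAN, which it leaves out, at -1.11, and none was called for FAMA-EAR or for 4 h of FAMA. PSAN is 1 of the 7 photosystem genes called lower.

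**Figure D5:**
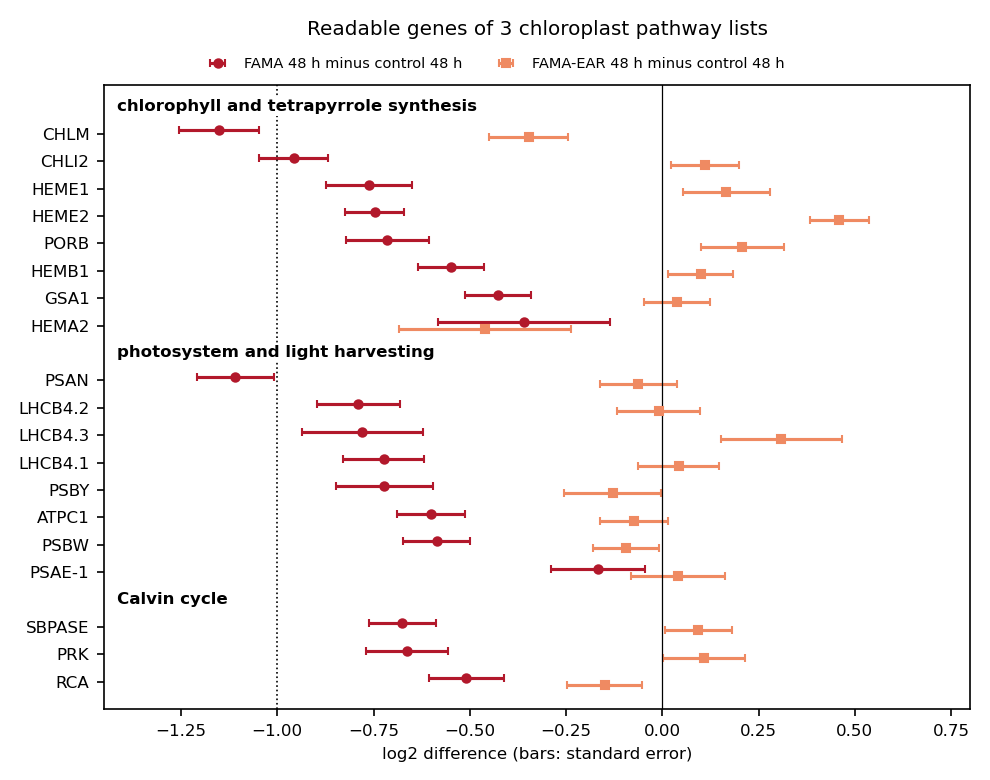
Log2 differences of FAMA 48 h (circles) and FAMA-EAR 48 h (squares) from the 48 h controls for the readable genes of 3 chloroplast lists, with bars of 1 standard error of the limma fit. The dotted line marks the fall limit of -1. CHLM and PSAN lie beyond it with FAMA, at -1.15 and -1.11, and the FAMA-EAR values lie between -0.46 and 0.46.

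Of the other lists with at least 3 readable genes, starch metabolism had 2 of 5 higher with FAMA at 48 h, glucosinolate metabolism 2 of 6 lower, jasmonate 2 of 4 higher, salicylate and pathogen response 1 higher and 1 lower of 6, and sulfate assimilation 1 higher and 1 lower of 3. The starch genes APL3 and APL4, for large subunits of ADP-glucose pyrophosphorylase, were higher by 2.92 and 3.05 log2 units. SIR, the sulfite reductase, was lower, with a log2 difference of -0.87. Over all probe sets 10.6% were called higher and 11.0% lower in this comparison, and over those with the control level 17.0% and 20.4%. With so few readable genes these counts stand as a description. No member is in these lists.

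Some of the cell type marker lists differed with FAMA at 48 h and others did not. Beside them, 10.6% of all probe sets were called higher and 11.0% lower, and 17.0% and 20.4% of those with the control level. The 3 readable of 18 mesophyll markers, LHCB4.1, RCA and STOMAGEN, were all lower with FAMA at 48 h, and their summed signal ranged over 29366 to 30932 in FAMA seedlings, 41070 to 46227 in FAMA-EAR seedlings and 42450 to 49576 in controls. The phloem marker SWEET11, 1 readable of 10, ranged over 2302 to 2670 in FAMA seedlings, 3516 to 4360.0 in FAMA-EAR seedlings and 4157 to 5597 in controls. The 4 readable of 17 root epidermis, root hair and cortex markers summed to 13594 to 15931 in FAMA seedlings, 20162 to 23165 in FAMA-EAR seedlings and 22004 to 24966 in controls, with 2 of 4 lower. Most of that sum is PYK10, a beta-glucosidase of roots, which averaged 12349 ± 1202 in FAMA seedlings, 18255 ± 1545 in FAMA-EAR seedlings and 19756 ± 1488 in controls (SD, n = 3 each), a difference for FAMA of -0.68. JAL22, the other gene called lower, differed by -0.48, while the expansin genes EXPA7 and EXPA18 had values of 0.18 and 0.47 and did not pass. Of 20 guard cell and stomatal lineage markers 5 could be read, with 3 higher and 1 lower at 48 h of FAMA. One of the 3 is FAMA itself, the gene that was switched on, so its rise is no marker response. The others were AT4G14480, higher by 0.92 log2 units, and CHX20, an ion transporter of guard cells. CHX20 averaged 469 ± 10.5 in FAMA seedlings, 196 ± 15.0 in FAMA-EAR seedlings and 231 ± 52.8 in controls (SD, n = 3 each). SPCH, which starts the lineage, averaged 137 ± 34.6, 249.7 ± 46.2 and 244 ± 11.8 in the same groups. MUTE, which acts between them, stayed under 50 on average in every group. The bundle sheath list, the root endodermis and stele list and the seed reserve list had 1 readable gene each, none of them called at 48 h of FAMA, and no marker of pavement epidermis or xylem could be read. The part of cell makeup in the late falls was not tested.

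Replicates of the members spread a little more than those of probe sets with the control level, except in the 4 h controls. The median SD of log2(signal + 20) over the members was 0.11 in FAMA seedlings at 48 h, 0.13 in FAMA-EAR seedlings, 0.13 in the 48 h controls, 0.19 in FAMA seedlings at 4 h and 0.10 in the 4 h controls. Over the probe sets with a 48 h control mean of 200 or more it was 0.09, 0.11, 0.12, 0.17 and 0.12 in the same order. The largest spread among members with 1 gene was at 4 h of FAMA in AT3G12685, which read 204, 199 and 62.1, with the third array low. Under 15 repeats of the rule that each left out 1 array, 51 members were kept every time, and AT3G15630 was kept in 5 of the 15. Among the 30 genes with the largest differences, AT5G51010, AT5G12050, AT2G23540, AT5G47610, AT3G44970 and scpl35 left the rule with array medians set equal. AT5G43180 and AT4G23820 left it with quantile normalization.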

How the data were processed

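Whole-seedling RNA was read on Affymetrix ATH1 arrays, 3 in each of 5 groups, taken from the sample titles. The deposited values are signal intensity on a linear scale made with MAS5, per the submitters' processing notes. Neither its version nor its scaling target is known here. The mean of each array without the lowest and highest 2% was 500.04 to 500.05, so arrays had been scaled by the authors. MAS5 reads each array alone, and dim signals carry a larger relative error. Arrays hold no counts, and their number limits the precision.

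Signals were used as log2(signal + 20) and 64 control probe sets were left out. All 22746 others were fitted in limma 3.58.1 under R 4.3.3 with a mean for each group and a variance trend, with two-sided tests and Benjamini-Hochberg adjustment over all of them at a threshold of 0.05. On data simulated for the difference between 48 h and 4 h controls over 22746 probe sets, the fit recovered 53% of 100 changes of 1 log2 unit and 77% of 100 changes of 2, with 6 false calls. An exact two-sided test of 3 arrays against 3 cannot reach below p = 0.1. The labels do not say that replicates came from separate cultures, so the spread behind the p-values may be technical. All RNA was extracted in the same week, per the labels' protocols.

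The members and lists were chosen with earlier results of these data known. Signals of each array are given for the 30 members with 1 gene that differed most between FAMA and control at 48 h. Genes for the others are given by range, and the probe sets nearest each limit and list genes are named. They were to be ordered by role, but the sources name a function for 5 members only. Gene names come from the array's probe table, matched to the gene table of TAIR10.1. Of 628 symbols in 17 pathway lists, 50 could be read and 2 lists held none, and 10 symbols that matched another gene were dropped. Promoter sequences were not used here. Replicate numbers shared across groups did not mark pairs, since 0 of 30 same-number pairs of arrays had deviations correlated over 0.1 (-0.061 to 0.042). Tables and figures were made with pandas 2.3.3 and matplotlib 3.10.9 under Python 3.11.15.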

Additional observations from a re-analysis of the deposited data

How the results depend on the processing

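With the replicate number as a block, which the arrays do not bear out as a pairing, the members higher and lower with age in controls were 28 and 14, those for FAMA-EAR 48 h over FAMA 4 h were 42 and 16, and those lower in FAMA 48 h than FAMA 4 h were 107. The rule found 76 probe sets with an offset of 100 in place of 20, 318 with a fall limit of -0.8 and 49 with -1.2. Only 45 members stayed under quantile normalization, equal array medians and every left-out array together, a check added after seeing the data. Members higher with age in controls were 17 with no variance trend. Over all probe sets, calls with age in controls were 1633, and 1077 with array medians set equal, 941 with no variance trend and 2653 with array weights. Calls for FAMA-EAR 48 h over FAMA 4 h were 3441, and 1894 with only the 6 arrays compared. The cause of these shifts was not tested.

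Leaving out 1 array at a time gave 1041 to 2264 calls with age in controls, the lowest without the second 48 h control, and 2554 to 3977 for FAMA-EAR 48 h over FAMA 4 h. Members higher with age in controls were 21 to 34 and lower 11 to 15, members higher in FAMA-EAR 48 h over FAMA 4 h 32 to 43 and lower 11 to 18, and members lower in FAMA 48 h than FAMA 4 h 105 to 107. The rule found 103 to 125. Of the repeated values for single genes, 1617 kept direction and side of the threshold, 83 lost the call, 32 gained it and 38 changed sign, all 38 without a call under either setting. Of the sign changes 34 came from leaving out 1 array. The log2 ranges over left-out arrays for age in controls were AT5G18600 (-0.067 to 0.12), AT2G25200 (-0.18 to 0.24), AT5G03120 (-0.0077 to 0.13), AT1G73120 (-0.11 to 0.41), AT5G37990 (-0.059 to 0.18), AT3G15770 (-0.014 to 0.17), AT1G21500 (-0.015 to 0.085), AT1G52100 (-0.18 to 0.11), AT2G29290 (-0.095 to 0.11) and AT1G80180 (-0.12 to 0.25), and for FAMA-EAR 48 h over FAMA 4 h AT2G25200 (-0.15 to 0.26), AT3G44970 (-0.33 to 0.012), AT3G15770 (-0.088 to 0.19), AT3G10020 (-0.047 to 0.17) and AT4G17810 (-0.12 to 0.12). The other sign changes were in controls, AT5G37990 with array weights (-0.0081) and AT2G29290 with quantile normalization, equal medians and array weights (0.0016, 0.0045 and 0.054). The motif search was not run, as no promoter sequences were used here. Dim probe sets and the few arrays limit what could be called.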
